A study of Mus musculus with 5 samples.

Results

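The contacts described here link 2 domains that lie on either side of the Shh regulatory domain on mouse chromosome 5 (mm9). They are the primer pairs with 1 fragment midpoint in the domain 3' of Shh (chr5:28317087-28765086, 448 kb) and the other in the domain beyond the Lmbr1 edge (chr5:29689087-30005000, 316 kb), so that each of them skips the 924 kb between. The rule uses positions only. It gave 3337 pairs, out of 31328 within the Shh region and 33306 in all, formed by 89 fragments of the 3' domain and 75 fragments of the domain beyond Lmbr1. Read counts came from 5C (chromosome conformation capture carbon copy) on CD1 embryos at E11.5, for which the labels give no genetic change and no treatment before fixation. There were 2 samples of limb buds, 1 of bodies and 1 of heads, the last sequenced as 2 technical libraries that were summed. Each sample was a whole tissue holding many cell types. Where 4 values stand together, they follow the order limb replicate 1, limb replicate 2, body, head.

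In 5C, chromatin is fixed with formaldehyde, cut with HindIII and ligated, and a forward and a reverse primer at the ends of 2 fragments are joined and read when those fragments were ligated together. The read count of a primer pair then stands for how often the fragments were near each other, and also for how well each primer works. Chromosomes fold into topologically associating domains, within which contacts are frequent, while contacts between domains are rarer. Shh encodes a signalling molecule that patterns the limb, the brain and the face, and its limb enhancer, the ZRS, lies within an intron of Lmbr1. Both Shh and the ZRS fall in the skipped interval. The 3' domain holds Insig1, which regulates sterol synthesis, the homeobox gene En2, which acts in midbrain and hindbrain development, Cnpy1 and the RNA-binding gene Rbm33. The domain beyond the edge holds the 5' end of Lmbr1, the non-coding gene 4632411P08Rik, the nucleolar gene Nom1, the homeobox gene Mnx1, which acts in motor neuron and pancreas development, and the ubiquitin ligase gene Ube3c.

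The fragments of the most-read contact, and those joining the En2 upstream flank to Mnx1, are shown by the 40 bases at their HindIII ends. The sequences are from the plus strand of mm9, with the HindIII site in capitals. The first pair of fragments formed the most-read contact. The last pair joined a fragment just upstream of En2, which does not overlap that gene, to the fragment holding Mnx1. The site was found at the left end of all 354 Shh-region fragments in the tables. The sequences of the primers themselves were not used here.
Rbm33 fragment, left end, chr5:28723247-28723286: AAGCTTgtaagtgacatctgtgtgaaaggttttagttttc
Rbm33 fragment, right end, chr5:28724925-28724964: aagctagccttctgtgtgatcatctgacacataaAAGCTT
fragment upstream of Mnx1, left end, chr5:29815591-29815630: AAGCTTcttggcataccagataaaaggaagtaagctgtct
fragment upstream of Mnx1, right end, chr5:29816480-29816519: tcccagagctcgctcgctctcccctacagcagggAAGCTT
fragment upstream of En2, left end, chr5:28486214-28486253: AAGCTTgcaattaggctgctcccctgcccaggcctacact
fragment upstream of En2, right end, chr5:28491903-28491942: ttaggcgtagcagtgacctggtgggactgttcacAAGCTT
fragment holding Mnx1, left end, chr5:29797220-29797259: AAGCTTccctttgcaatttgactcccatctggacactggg
fragment holding Mnx1, right end, chr5:29805326-29805365: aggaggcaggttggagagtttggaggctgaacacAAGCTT
Next are the 100 bases before the annotated starts of both homeobox genes, with CpG in capitals.
En2, 100 bases upstream, chr5:28492136-28492235, plus strand: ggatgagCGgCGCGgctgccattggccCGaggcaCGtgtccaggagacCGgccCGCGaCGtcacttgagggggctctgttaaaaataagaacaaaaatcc
Mnx1, 100 bases upstream, chr5:29805060-29805159, minus strand: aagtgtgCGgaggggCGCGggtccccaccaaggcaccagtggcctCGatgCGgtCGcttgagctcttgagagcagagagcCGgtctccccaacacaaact
These 100 bases held 9 CpG and 60% G and C before En2, and 7 CpG and 64% before Mnx1. Among the 8 protein-coding genes considered here, the count ranged from 3 CpG before Cnpy1 to 22 before Ube3c, so the homeobox genes did not stand apart in this respect.

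The deposited tables held 675954 and 1714491 reads in the limb replicates, 1056071 in body and 1979743 in head (1048682 and 931061 in its libraries). Outer-to-outer pairs took 23022, 51479, 20196 and 74386 of these reads. As a share of all reads this was 3.41% (95% Wilson interval 3.36 to 3.45%) and 3.00% (2.98 to 3.03%) in limb, 1.91% (1.89 to 1.94%) in body and 3.76% (3.73 to 3.78%) in head, where the libraries gave 3.47% and 4.08%. Body was therefore lowest and head highest. The limb mean was 3.20% ± 0.285 (SD, n = 2), between the other tissues, and an exact two-sided permutation test of limb against non-limb gave p = 1, where 0.333 is the smallest p that 2 samples against 2 allow. Body had nevertheless the most pairs with a read. Thinned to the depth of limb replicate 1, 60.3% of outer-to-outer pairs were read in body, 45.1 and 47.6% in limb and 48.7% in head with its libraries summed, of which each alone reached 35.9 and 29.4%.

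A single contact held much of this share outside body. It joined a fragment inside Rbm33 (chr5:28723250-28724961) to a fragment upstream of Mnx1 (chr5:29815594-29816516), 1092 kb apart. The limb replicates held 5111 and 3915 reads of it, body 59, and the head libraries 2460 and 7614. These were 22.2 and 7.61% of all outer-to-outer reads of the limb replicates and 13.5% of those of head. Among the 84 other outer-to-outer pairs with both midpoints within 28 kb of it, the most-read had 37, 118, 37, 71 and 170 reads in the same order. The count thus stood alone among its neighbours in limb and head but not in body, where it differed little from the highest of them. It was 1 of 11 isolated contacts in the Shh region, defined as having at least 100 reads and 20 times the most-read of the neighbouring pairs in 2 or more libraries, and the only one between the outer domains. The fragments share a run of 48 bases made of a simple dinucleotide repeat, and 113 of the 3337 pairs (3.39%) share a run of 40 bases or more. Without isolated contacts, the pairs with such a run had mean interaction frequencies of 0.0124, 0.0130, 0.0125 and 0.0157, and those without it 0.00779, 0.00815, 0.00548 and 0.00953. These 2 groups were not matched for fragment length, separation or primer totals. Whether sequence or amplification had a part in the count of the isolated contact was not tested, and means are given with and without it.

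With it, the mean interaction frequency of the outer-to-outer pairs (reads divided by total reads, times 1000) was 0.0102, 0.00900, 0.00573 and 0.0113. Without it, these were 0.00794, 0.00832, 0.00572 and 0.00974, and the order of the tissues held. A count of 0 in a primer pair allows a frequency of up to 0.00444 in limb replicate 1 and 0.00152 in head, and the median pair was below that limit in each sample.

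The next 5 most-read pairs were far lower in limb and head, but not in body, where the sixth had more reads than the first. A fragment between Insig1 and En2 (chr5:28428927-28447705) contacted a fragment inside Nom1 (chr5:29768741-29769326) with 209 and 521 limb reads, 11 body reads, and 296 and 2104 reads of the head libraries. The head libraries of this 1 sample thus differed more than the limb replicates did. The following 3 pairs shared a fragment inside 4632411P08Rik (chr5:29713093-29716181), which met a pair of fragments in Rbm33 (chr5:28652424-28656081 and chr5:28698429-28705774) and 1 before En2 (chr5:28484053-28486216). The first of these contacts had 141 and 256 limb reads, 21 body reads, and 177 and 28 reads of the head libraries. This fragment was also well read outside the outer domains, with a mean interaction frequency of 0.103 in limb replicate 1 and 0.0254 in body over its other Shh-region pairs. The sixth pair joined the fragment just upstream of En2 (chr5:28486217-28491939) to a fragment upstream of Mnx1 (chr5:29809880-29815593). It had 45 and 76 limb reads, 96 body reads, and 118 and 61 reads of the head libraries, so it was the most evenly read of the 6, and the highest of 210 pairs in its separation bin in body. Its fragments also share a dinucleotide repeat, in a run of 47 bases.

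**Figure D1:**
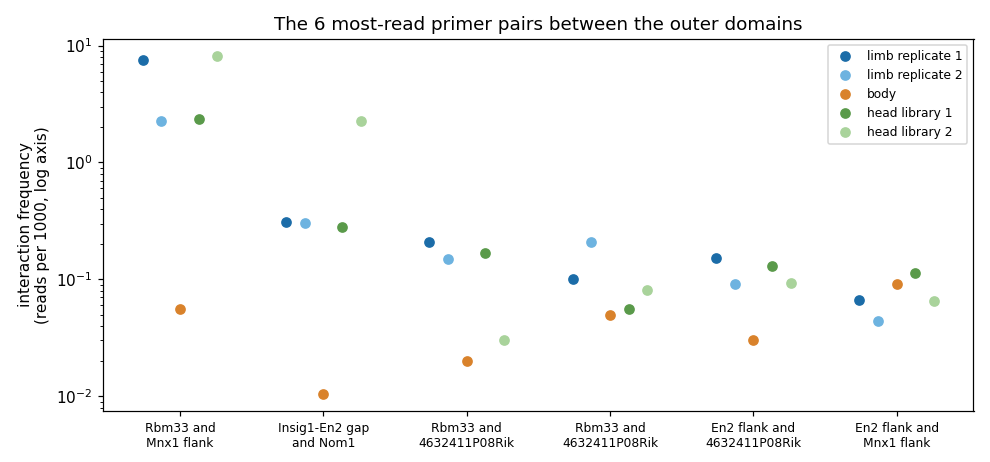
Interaction frequency (reads per 1000 reads of the library, log axis) of the 6 most-read primer pairs between the outer domains, 1 point per library. The Rbm33 contact spans 0.0559 in body to 8.18 in head library 2, whereas the En2 and Mnx1 flanks stay between 0.0443 and 0.113.

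The levels followed the fragments closely. Over the 89 fragments of the 3' domain, the mean level with the opposite outer domain and the mean level with all other Shh-region fragments had rank correlations of 0.90, 0.92, 0.95 and 0.92, and over the 75 fragments beyond Lmbr1 0.89, 0.94, 0.95 and 0.89. These are descriptions over fragments that share a library and a primer efficiency. Longer fragments had higher levels, with rank correlations of 0.26 to 0.55 with length over both domains and the 4 samples. A fragment that was high between the outer domains was therefore mostly one that was high throughout, and levels of single pairs are given below relative to their primers as well.

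Pairs between the Shh region and the Usp22 region on chromosome 11 gave the background of the assay in the same libraries. Only 5.65 and 5.40% of these 1948 interchromosomal pairs were read in limb at equal depth, body reached 9.86%, and the head libraries 3.91 and 16.8%, against 29.4 to 60.3% of the outer-to-outer pairs. As unthinned shares, outer-to-outer pairs were read 7.98, 7.25, 5.26 and 2.62 times as often. The fold over the mean interchromosomal level was 1.30, 2.42, 15.5 and 1.53, but 9181 of the 10325 interchromosomal reads of limb replicate 1 lay in 1 pair. Without isolated contacts, and with all interchromosomal pairs kept, it was 1.01, 2.24, 15.4 and 1.32, and 0.81 in head library 2. With both kinds of pair capped at their 99th percentile the fold was 15.6, 19.2, 19.9 and 5.08. Head library 2 was the exception at 2.85 (1.01 uncapped), against 15.4 in head library 1. Outer-to-outer pairs were thus more often read than interchromosomal pairs in each sample, whereas the fold in mean level depended on how single pairs were weighted. Without isolated contacts it was barely above 1 in limb replicate 1 and below 1 in head library 2.

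The question posed by the design was whether these contacts were as frequent as other contacts of equal span. Other Shh-region pairs reached the same separations in 14 bins of 28 kb between 952 and 1344 kb, with 2147 outer-to-outer and 2512 other pairs. Each of these other pairs had 1 fragment in the skipped interval and 1 in an outer domain (1657 in the 3' domain, 855 beyond Lmbr1). They thus crossed 1 edge of the interval themselves. No pair inside a single domain was that long, so the ratio does not compare with contacts within a domain. The remaining 1190 outer-to-outer pairs lay mostly farther apart than any other pair and were not compared. The outer-to-outer mean over the mean of the other pairs was 1.50, 0.99, 1.34 and 1.14 (1.12 and 1.17 in the head libraries). The limb mean was 1.25 ± 0.357 (SD, n = 2), so the limb replicates spanned both other tissues. A two-sided exact sign-flip permutation test over the 4 samples gave p = 0.25, where 0.125 is the smallest p possible, and limb against non-limb gave p = 1 by exact permutation.

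Without isolated contacts of either kind the ratios were 1.17, 1.04, 1.34 and 1.07, and the limb replicates moved together. In the same order, against pairs of the 3' domain with the interval the ratios with isolated contacts were 1.40, 0.93, 1.30 and 1.07, and against pairs of the interval with the domain beyond Lmbr1 they were 2.10, 1.39, 1.53 and 1.64. The outer-to-outer pairs were thus above the second kind of pair in each sample. Without isolated contacts, the ratio was 1.78, 1.66, 1.86 and 1.34 at separations under 1092 kb and 1.07, 0.93, 1.25 and 1.03 farther apart, with head library 2 at 0.90 in the nearer range. Before any correction for primers, the nearest outer-to-outer pairs were therefore higher than other pairs of equal span, except in head library 2. Beyond that range the ratio stayed near 1 in limb and head. Over all separations, leaving out also the 2 fragments of highest mean level beyond Lmbr1 gave 1.07, 0.94, 1.27 and 0.99.

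**Figure D2:**
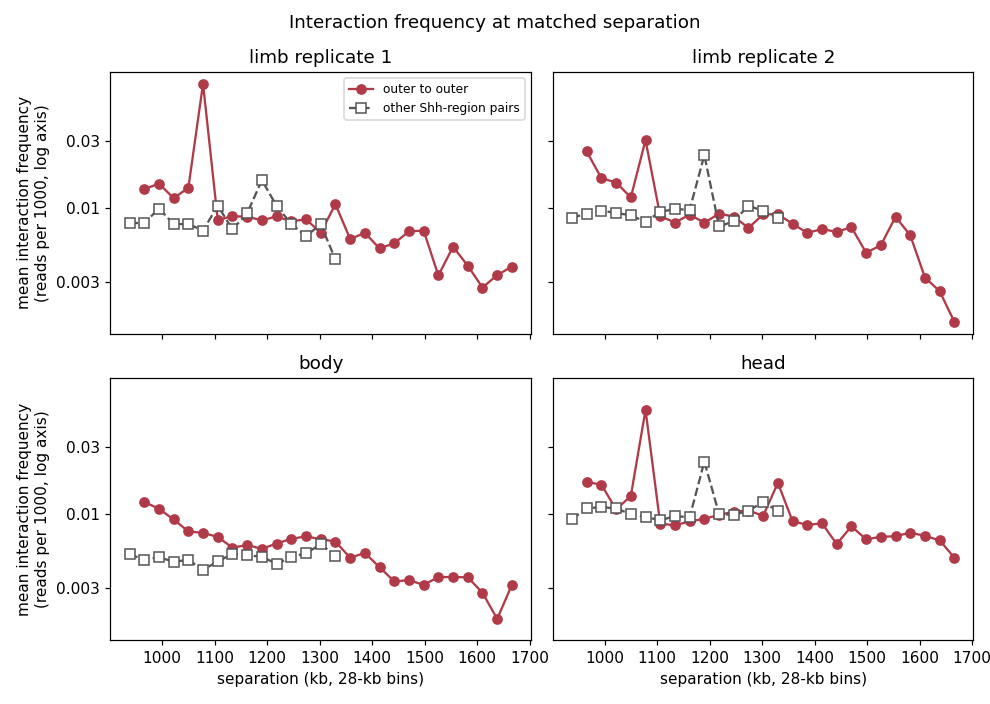
Mean interaction frequency (reads per 1000, log axis) against separation in 28-kb bins for outer-to-outer pairs and other Shh-region pairs, 1 panel per sample, bins of at least 10 pairs. Peaks at 1064 to 1092 kb (outer to outer) and 1176 to 1204 kb (other pairs) in limb and head, absent in body, are bins holding isolated contacts. In body the outer-to-outer line lies above the other line in all 14 bins compared.

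The comparison turned on which primer lay in which domain. Forward and reverse primers alternate along the region, so 1672 pairs had the forward primer in the 3' domain and 1665 the reverse primer. Without isolated contacts, the first kind gave ratios of 1.90, 1.78, 2.31 and 1.81, and the second kind 0.74, 0.68, 0.93 and 0.67. Each fragment carried only 1 kind of primer, so these are different fragments, and primers and fragments cannot be told apart here. Each count was therefore also divided by the relative totals of its 2 primers, each total set against what the separations of its pairs would give. The ratios became 1.47, 1.15, 1.73 and 1.32 (1.24 and 1.36 in the head libraries). By orientation they were 1.52, 1.04, 1.78 and 1.23 for forward primers in the 3' domain and 1.49, 1.32, 1.83 and 1.49 for reverse primers. After this correction both orientations lay above 1 in the 4 samples, and body was highest and limb replicate 2 lowest. The exact sign-flip p was 0.125, the smallest that 4 samples allow. Before the correction each orientation alone gave the same sign-flip p of 0.125, on opposite sides of 1. All samples share primers and fragments, so a bias of these can move the ratios together, and this p does not measure it. The correction was chosen after the opposite orientations had been seen. It raised the ratio in each sample, from 1.17, 1.04, 1.34 and 1.07 without isolated contacts. The totals came from all Shh-region pairs at least 56 kb apart, so they also hold contacts within each domain. Whether this raised the corrected ratios was not tested.

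**Figure D3:**
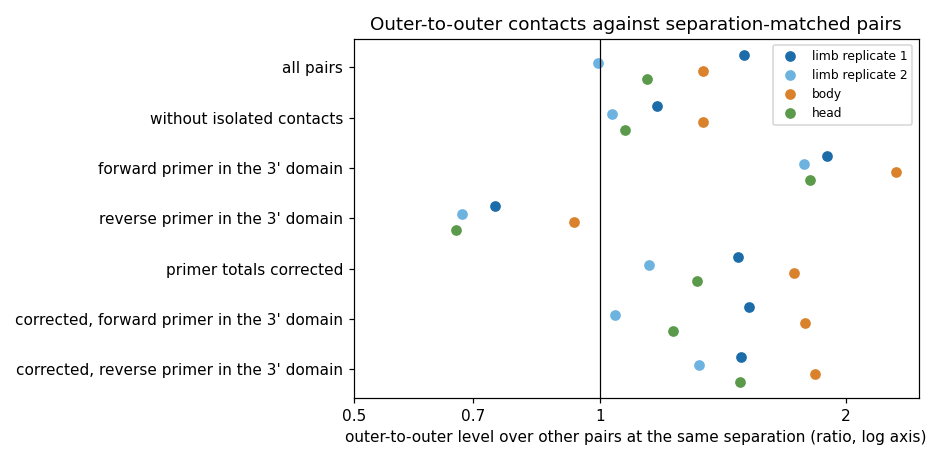
Outer-to-outer level over that of other Shh-region pairs at the same separation (ratio, log axis) for each sample under 7 ways of counting, where 1 means equal. The 2 orientations lie on opposite sides of 1 before the correction for primer totals and on the same side after it.

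With at least 56 kb between each fragment and the inner edge of its domain, the uncorrected ratios were 0.95, 0.76, 1.19 and 0.85. This margin also removes the isolated contact. With isolated contacts of either kind left out before and after, the margin lowered the ratios from 1.17, 1.04, 1.34 and 1.07 to 1.03, 0.88, 1.20 and 0.97. The corrected ratios away from the edges were 1.53, 1.12, 1.77 and 1.32. The edges themselves were read from the window just inside and the window just outside, each with the opposite outer domain. At the edge between Rbm33 and Shh, the log2 ratio of inside over outside was -0.10, -0.29, 0.03 and -0.15 over 187 and 188 pairs. At the Lmbr1 edge it was 0.41, 0.56, -0.98 and 0.46, but the window outside held only 1 fragment with 44 pairs. With 2 windows on each side the Lmbr1 value was -0.17, -0.13, -0.23 and -0.17. No step at either edge had the same sign in all samples and settings.

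Along the domains, levels with the opposite domain, not corrected for primers, varied more from window to window than from tissue to tissue. Without isolated contacts, the window between Insig1 and En2 (chr5:28429087-28457086) was highest in the 3' domain in limb replicate 1, body and head at 0.0161, 0.00960 and 0.0242. The head libraries gave 0.0151 and 0.0344 for this window, where its contact with the Nom1 fragment had 296 and 2104 reads. In limb replicate 2 the windows of Cnpy1 (chr5:28513087-28541086) and Rbm33 (chr5:28653087-28681086) were highest, both at 0.0132. Beyond Lmbr1, the innermost window with the start of Lmbr1 and 4632411P08Rik was highest in limb and head at 0.0152, 0.0166 and 0.0151, and in body the next window was, at 0.00883. The outermost windows were among the lowest, at 0.00291 to 0.00528 for the outer end of the 3' domain and 0.00439 to 0.00650 for the end of Ube3c. Over the outer-to-outer mean at the same separation, the window between Insig1 and En2 was at 2.41, 1.72, 1.98 and 2.64 times. Corrected for primer totals it was at 1.33, 0.96, 1.13 and 1.23 times (0.87 and 1.49 in the head libraries). The innermost window beyond Lmbr1 was at 1.50, 1.49, 1.01 and 1.35 times, and when corrected at 1.05, 1.16, 1.03 and 1.02 times.

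**Figure D4:**
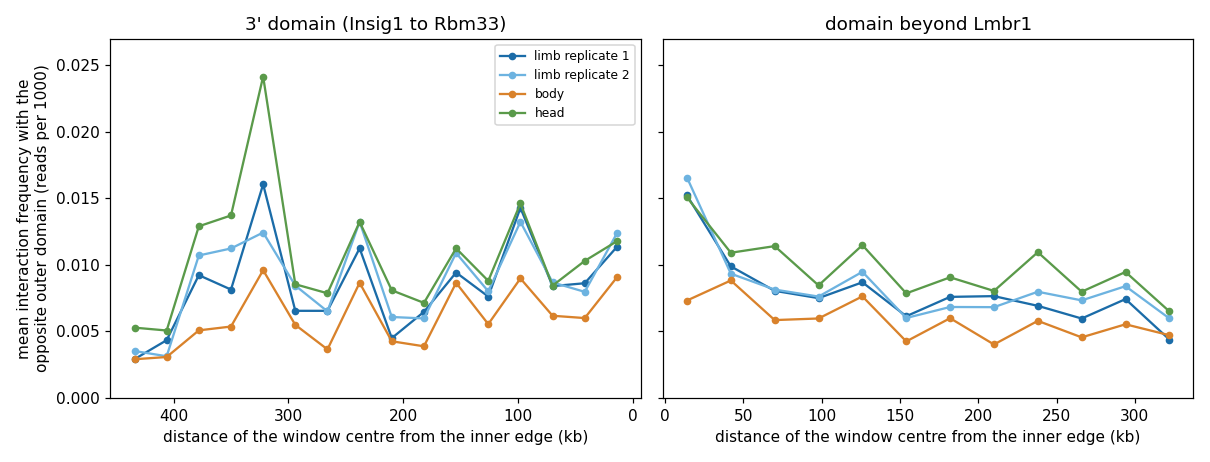
Mean interaction frequency (reads per 1000) of each 28-kb window with the whole opposite outer domain against the distance of its centre from the inner edge, 1 line per sample, isolated contacts left out. Levels are not corrected for primers or separation. The window of 322 kb in the 3' domain peaks in head at 0.0242 (0.0151 and 0.0344 in its libraries), and levels fall with distance beyond Lmbr1 in limb.

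Of the 192 window pairs between the domains, the highest by the mean over tissues was the pair of Rbm33 with the Mnx1 flank (chr5:28709087-28737086 and chr5:29801087-29829086), at 0.275, 0.0857, 0.00599 and 0.188, which holds the isolated contact and was 0.00548 in limb replicate 1 without it. Next was the window between Insig1 and En2 with that of Nom1 at 0.0379, 0.0380, 0.0103 and 0.117. In this window pair 1 primer pair held 209 of 282, 521 of 717, 11 of 120 and 2400 of 2540 reads. Head library 2 gave 2104 of the head reads. Another Rbm33 window (chr5:28653087-28681086) with the innermost window beyond Lmbr1 had 0.0330, 0.0400, 0.00907 and 0.0297. The window between Insig1 and En2 with the Mnx1 window had 0.0250, 0.0148, 0.0233 and 0.0248, the highest of 12 window pairs at that separation in each sample. The window between Cnpy1 and Rbm33 (chr5:28597087-28625086) with the innermost window had 0.0305, 0.0207, 0.0158 and 0.0248. Body was lowest in 4 of these 5.

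Among 16 gene pairs between the domains, the homeobox genes En2 and Mnx1 had the highest contact level after the correction for primers, a rank that in limb depended on single fragments. En2 lies at chr5:28492236-28500152 and Mnx1 at chr5:29799578-29805059, about 1306 kb apart. No primer pair joined a fragment that overlaps En2 to one that overlaps Mnx1, and 21 did so with 10 kb added on either side of both genes. These had 284, 622, 432 and 1020 reads (661 and 359 in the head libraries), spread over 14, 14, 18 and 13 read pairs. No single pair held more than 23.6% of the reads in the 4 samples. Their mean interaction frequency was 0.0200, 0.0173, 0.0195 and 0.0245, which was 2.47, 1.93, 2.95 and 2.02 times the mean of the outer-to-outer pairs at the same separation. Among the 16 pairs of the 4 genes on either side, with the same 10 kb, the ranks were 1, 3, 1 and 3.

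Corrected for primer totals, the En2 and Mnx1 level was 2.11, 2.19, 4.21 and 2.74 times the outer-to-outer mean, and 3.30 and 2.04 in the head libraries. Primers of low totals have no corrected level, so it rests on 18 of the 21 pairs in limb replicate 1 and 15 in the other samples. The fragment holding the start of En2 (chr5:28491940-28496579) had no reads with the Mnx1 flanks in limb replicate 2 and head and entered the corrected level only in limb replicate 1, so that elsewhere the level is that of fragments beside En2. It was the highest of the 16 gene pairs in each of the 5 libraries. The next were Insig1 and Ube3c at 1.76 and 1.61 in limb and 1.49 in head, and Insig1 and Mnx1 at 1.48 in body. The lowest was Insig1 and Lmbr1 at 0.33, 0.36 and 0.64 in limb and body and Insig1 and Nom1 at 0.43 in head, and the median gene pair was at 1.02 to 1.06. With 28-kb windows, the pair holding En2 and the Mnx1 start was the first of 192 by the mean over tissues, at 1.84, 1.89, 3.31 and 2.32, with ranks of 12, 9, 1 and 5 in the samples, so other window pairs were higher in limb and head.

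The level was higher at shorter distances. With 5 kb on either side it was 2.89, 4.00, 6.69 and 4.15 (9 corrected pairs in limb replicate 1 and 6 in the others), with 20 kb 1.21, 1.62, 1.84 and 1.94 (60 and 54) and with 30 kb 1.18, 1.54, 1.71 and 1.51 (105 and 97), distances chosen after the 10-kb values were seen. The fragment holding the whole of Mnx1 (chr5:29797223-29805362) had 20, 82 and 23 reads in limb and body and 95 in head library 1 with the fragment just upstream of En2, and 0 in head library 2. This pair was 5.71, 10.6 and 13.2 times the corrected mean in limb and body and 19.0 times in head library 1, and it was the highest of 216 pairs at its separation in limb replicate 2, body and head library 1. The Mnx1 fragment has low primer totals, with a mean of 0.00123 over its other Shh-region pairs in body, so these factors rest on few reads. Its contact with a fragment beyond the 3' end of En2 (chr5:28504618-28506235) had 12 and 13 reads in limb, 12 in body, 13 in head library 1 and 0 in head library 2. Leaving out the Mnx1 fragment lowered the 10-kb level to 1.66, 1.48, 2.75 and 1.99, with 1.53 in head library 1 and 2.79 in head library 2. En2 and Mnx1 then ranked 2, 3, 1 and 1 among the 16 gene pairs, below Insig1 and Ube3c in both limb replicates and, at rank 3, in head library 1. At 5 kb without this fragment the level was 1.69, 2.21, 3.20 and 2.45, from 7 pairs in limb replicate 1 and 4 in the others.

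Each of the other fragments was also left out in turn, after the values had been seen. Without the fragment just upstream of En2 the level was 1.87, 1.39, 3.42 and 2.18, and the rank in limb replicate 2 was 2. Without the fragment upstream of Mnx1 with the most reads in body (chr5:29809880-29815593), which shares the repeat with the En2 flank, the level was 2.25, 2.43, 4.79 and 2.69, and 1.25 in head library 2. The level thus stayed above 1 in each library whichever fragment was left out. In body and in head with its libraries summed it also kept the first rank, but not in limb or in the single head libraries.

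**Figure D5:**
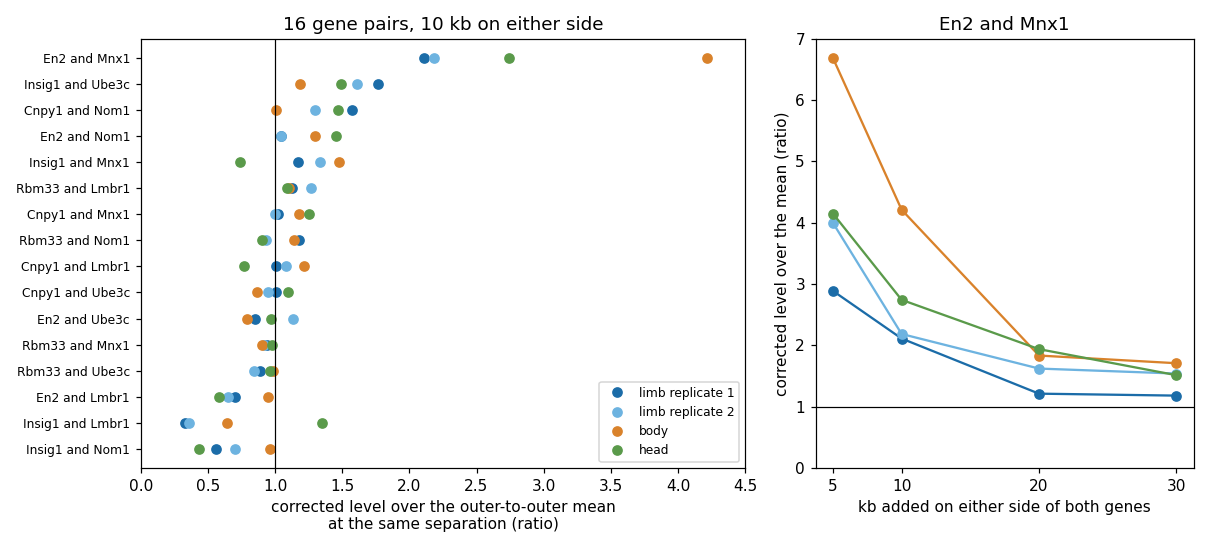
Left, corrected level of 16 gene pairs between the outer domains with 10 kb on either side, as a ratio to the outer-to-outer mean at the same separation, 1 point per sample. Right, the same for En2 and Mnx1 with 5, 10, 20 and 30 kb on either side. En2 and Mnx1 lie highest in each sample, and the ratio in body falls from 6.69 at 5 kb to 1.71 at 30 kb.

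The other gene pairs were described by the gene bodies alone where these held more than 3 primer pairs, as the level over the mean at the same separation. The pairs with the most primers were near that mean. Rbm33 and Ube3c, with 378 primer pairs, had an interaction frequency of 0.00901, 0.00929, 0.00714 and 0.0110, which is 1.09, 1.10, 1.10 and 1.04 times the mean. Cnpy1 and Ube3c, with 196 pairs, were at 0.89, 1.05, 0.87 and 0.98 times. Rbm33 and Nom1, with 95 pairs, were at 1.07, 0.94, 1.26 and 0.75 times. Cnpy1 and Nom1, with 49 pairs, were at 0.81, 0.97, 1.18 and 1.05 times.

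The gene pairs with fewer primers lay farther from the mean. Insig1 and Ube3c, with 14 primer pairs, were above it in each sample at 1.31, 1.76, 1.67 and 1.75 times. Corrected for primer totals they were at 1.39, 0.86, 0.79 and 1.16 times, so below the mean in limb replicate 2 and body. Rbm33 and Lmbr1, with 27, were below the mean before correction at 0.26, 0.53, 0.26 and 0.67 times. With the correction they were at 1.12, 1.77, 0.95 and 1.84 times. Uncorrected, Cnpy1 and Lmbr1, with 14, were at 0.62, 0.81, 0.49 and 0.57 times, and Cnpy1 and Mnx1, with 7, at 0.74, 0.15, 0.10 and 0.48 times. After correction Cnpy1 and Lmbr1 were at 1.12, 1.31, 2.03 and 0.92 times. Cnpy1 and Mnx1 were then at 1.58, 0.56, 0.99 and 1.78 times. En2 and Ube3c, with 14, were at 0.19 and 0.11 times uncorrected in limb replicate 1 and body, with no reads in limb replicate 2 and head.

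Rbm33 and Mnx1, with 14 primer pairs, were at 0.20, 0.17, 0.13 and 0.08 times. The primer correction alone gave 0.49, 0.73, 0.73 and 0.34, and 10 kb on either side alone 1.14, 1.15, 0.96 and 1.16, so adding the flanks brought the level near the mean and the correction alone did not. Rbm33 and Lmbr1 with 10 kb on either side were at 1.35, 1.47, 1.01 and 1.29 times.

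Limb was set against non-limb tissue with edgeR's quasi-likelihood test on reads per window pair, fitted on the whole Shh region. None of the 191 outer-to-outer window pairs tested had a Benjamini-Hochberg adjusted p below 0.05, as was so for all 1874 window pairs (0%). At an unadjusted p below 0.05 there were 6 of 191, 3 higher and 3 lower in limb, beside 41 of 1874 (2.19%) over the whole region. DESeq2 called 0 of 192 and gave 7 at the unadjusted threshold, beside 62 of 1885 (3.29%) over the whole region. The median log2 fold change was -0.07 over the outer-to-outer window pairs and -0.02 over all. The lowest p belonged to the window between Insig1 and En2 (chr5:28457087-28485086) with the innermost window beyond Lmbr1, with 170, 406, 65 and 299 reads. Its log2 fold change was 1.09 ± 0.43 (SE) and its adjusted p by edgeR 0.99. Cnpy1 (chr5:28541087-28569086) with the Mnx1 window had 98, 210, 193 and 569 reads and a log2 fold change of -0.95 ± 0.39. Gm16719 (chr5:28345087-28373086) with the window of Gm6083 had 8, 14, 41 and 106 reads and -2.37 ± 0.96, with the same adjusted p for both. Body and head, unlike tissues with 1 sample each, formed the non-limb group, so the difference between them counted as spread within that group. No difference between limb and these tissues together was detectable at this number of samples. Limb was not tested against body or head alone.

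Libraries agreed in part on which window pairs were high. The rank correlation over 191 window pairs of at least 1 read was 0.59 between the limb replicates, 0.61 between each of them and body, and 0.57 and 0.62 between them and head. The 2 head libraries, made from 1 sample, agreed least at 0.33. The points share primers and separations, so these are descriptions. By rank the limb replicates were no closer to each other than to body, whereas Pearson's r was 0.67 between them and 0.59 and 0.56 with body.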

How the data were processed

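5C counts were taken from limb (2 biological replicates), body (1) and head (1 sample, 2 technical libraries, summed) of E11.5 CD1 embryos. The authors sequenced the libraries on an Ion PGM, processed the reads with a Torrent 5C pipeline on Galaxy and deposited raw read counts per pair of forward and reverse HindIII primers, with mm9 coordinates. The counts are not normalised. Each was divided here by the total deposited counts of its sample and multiplied by 1000. The Wilson 95% intervals, and the 3 reads taken as the limit of a count of 0, describe sampling of reads alone, because reads copied by PCR can stem from 1 molecule. Replicates were named in the labels as such, and p-values measure only the spread between these samples.

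Outer-to-outer pairs were compared with other Shh-region pairs in 28-kb separation bins with at least 10 pairs of each kind. Limb was set against body and head with the quasi-likelihood test of edgeR 4.0.16 (R 4.3.3), after filterByExpr and TMM scaling, on all Shh-region window pairs, with DESeq2 1.42.0 as an alternative. Primer totals used pairs at least 56 kb apart, the outer-to-outer pairs included, and primers below 0.1 of the mean total were left out. Genes came from GENCODE on NCBIM37, the same build as mm9. Named items were all 16 gene pairs, the 5 highest window pairs and the 3 of lowest edgeR p, and the 6 most-read primer pairs. The sequences shown are from those fragments, with the fragment holding Mnx1 and the upstream bases added after the values were seen. Members and lists were chosen with earlier results of these data known. The uncorrected ratio at matched separation and the edgeR step were tested on simulated counts with known changes. The simulated counts for the ratio held no primer effects, and the correction for primer totals was not part of these simulations. Python 3.11.15, numpy 2.4.6, pandas 2.3.3 and scipy 1.17.1 were used.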

Additional observations from a re-analysis of the deposited data

Results flagged for a closer look

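Body went against both limb replicates in 3 values, none of which was tested as a difference between tissues. At the edge between Rbm33 and Shh the log2 ratio of inside over outside was 0.029 in body and -0.10 and -0.29 in limb. At the Lmbr1 edge it was -0.98 in body and 0.41 and 0.56 in limb, where 1 fragment formed the window outside. Cnpy1 and Nom1, with 49 primer pairs, were at 1.18 times the mean at the same separation in body and at 0.81 and 0.97 times in limb. With 10 kb on either side body was at 0.94 times, beside 0.77 and 0.89 in limb, and with the primer correction as well the order turned, with 1.01 in body and 1.57 and 1.30 in limb.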

How the results depend on the processing

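The ratio of outer-to-outer to other pairs kept its side of 1 in body under each alternative but 1 and did not in limb and head. Values follow in the order limb mean, body, head where all are given. It was 1.06 and 1.10 in head with bins of 14 and 56 kb. With the median over primer pairs it was 2.41, 1.66 and 0.97, and with the share of pairs read 1.21 in body and 1.08 in head. Capping at the 99th percentile gave 1.02 in head, balanced primer totals 1.52 in body, and removal of isolated contacts 1.07 in head. Against pairs of the 3' domain only it was 1.30 in body and 1.07 in head, and against those of the domain beyond Lmbr1 1.74, 1.53 and 1.64. It was 0.85, 1.19 and 0.85 at least 56 kb from the inner edges. The settings that follow were chosen after seeing the data. Away from the edges without isolated contacts it was 0.95, 1.20 and 0.97. Balanced totals without isolated contacts gave 1.53 in body and 1.21 in head. Forward primers in the 3' domain gave 1.84, 2.31 and 1.81 and reverse primers 0.71, 0.93 and 0.67. Without the 2 highest fragments beyond Lmbr1 body was at 1.27 and head at 0.99. Under 1092 kb it was 1.72, 1.86 and 1.34, and farther 1.25 in body and 1.03 in head. Primer totals corrected for separation gave 1.73 in body and 1.32 in head, by orientation 1.78 and 1.23 for forward and 1.83 and 1.49 for reverse primers, 1.62 and 1.28 against the 3' domain, 1.82, 2.27 and 1.50 against the domain beyond Lmbr1, 1.77 and 1.32 away from the edges, and 1.72 and 1.30 without the 2 highest fragments. Leaving out 1 limb replicate gave 0.99 to 1.50 (without limb replicate 1 the ratio was 0.99), and 1 head library 1.12 to 1.17. The cause of these shifts was not tested.

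Of the Shh-region reads, the share was 1.95% in body and 3.85% in head, and 3.64% in head without the isolated contact. Leaving out 1 head library gave 3.47 to 4.08%. The fold over interchromosomal pairs was 7.62, 5.26 and 2.62 by pairs read, 17.4, 19.9 and 5.08 when capped, 16.3, 19.9 and 5.03 without isolated contacts and the 2 most-read interchromosomal pairs, and 1.32 in head without isolated contacts. Leaving out 1 head library gave 1.01 to 3.30. The Rbm33 to Shh edge was 0.72 and 0.94 (log2) in limb and head with 2 windows, a range that includes the isolated contact, and 0.18 and 0.022 with balanced totals. The Lmbr1 edge was -0.15, -0.23 and -0.17 with 2 windows and -0.38, -0.26 and -0.11 with balanced totals. The edgeR count of outer-to-outer window pairs called stayed at 0 in the 8 alternatives, including each limb replicate and head library left out, where the lone limb sample is assumed to vary like the other group. No paired analysis was made, because the labels do not link limb, body and head samples to the same embryos. Body and head also had 1 sample each.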
